A study of Mus musculus with 20 samples.

Results

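The genotype effect described here is the difference in liver transcripts between mice without and mice with estrogen receptor alpha, averaged over a placebo and an estradiol treatment. It compares all 10 null arrays with all 10 wild-type arrays, with the treatments weighted equally, and so uses all 20 arrays of the series. Wild-type mice (ERa_WT) carried estrogen receptor alpha and null mice (ERa_KOHmz) were homozygous for its knockout, and per the labels both genotypes descended from the same parents. Every animal was a female from which the ovaries had been removed at 4 weeks of age. At 9 weeks each received by gavage either placebo, which was castor oil with 5% ethanol, or estradiol (E2) at 1 mg/kg, and liver was taken 4 hours later. Each of the 4 groups of genotype and treatment held 5 animals, with 1 array per animal. Which part of the receptor gene the knockout removes is not stated by the labels, and the labels name no tissue-specific Cre. In pieces of whole liver, fewer cells of a type and less RNA per cell cannot be told apart.

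Estrogen receptor alpha is a nuclear receptor that binds estradiol and then acts on the transcription of target genes, either by binding DNA at estrogen response elements or through other transcription factors. It is the main estrogen receptor of hepatocytes, where it is known for effects on lipid, bile acid and amino acid metabolism. A difference between genotypes that is present with and without added hormone is distinct from a response to the hormone dose. The comparison asks which liver transcripts differed with the genotype whichever treatment the animal had received.

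Levels are log2 intensities relative to the 75th percentile of the array, and differences are null minus wild type on the log2 scale, with the standard error (SE) of the fit. A gene was called where the averaged difference had an adjusted p under 0.05 with limma and Benjamini-Hochberg adjustment over 21998 genes. A called gene was said to differ alike where both treatments gave the same sign and the smaller difference was at least 0.5 of the larger. The probes behind 5 of these genes, the 4 whose calls held in every alternative setting and Zc3h12d, are shown here because several of these genes gave unequal values at different probes. The first 30 bases of each 60-base probe are given 5′ to 3′ as the array files hold them, all in lower case, each named by the first base of the probe on mm9.
Esr1 at chromosome 10, 5343056: ttttttgtagacgtttcaaactaccgtgtc
Esr1 at chromosome 10, 5379218: aagatgctgttcaagaaccacaaatggaaa
Esr1 at chromosome 10, 5489352: ttattgaccaacctagcagatagggagctg
Mthfd1l at chromosome 10, 6190563: ctttgcaagagtgtgaactaaaagctaatg
Mthfd1l at chromosome 10, 6198416: acagaaacggagcaagttaaaggcttgttc
Zc3h12d at chromosome 10, 7589850: tactcggttcatttaggccacggttccatg
Rgs3 at chromosome 4, 62320777: ggagctggaattatacagaccttctgagaa
Rgs3 at chromosome 4, 62363208: taccctcgcttcctccgctctgacctctac
Rgs3 at chromosome 4, 62363993: gccctctggccacacagaaatgagtgctga
Gm6524 at chromosome 8, 11693102: gcaatgcatatgcctaccaccatggagaat

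A small share of liver transcripts differed with the genotype in the same direction under both treatments. Of 21998 genes 153 were called on the average (0.696%), 90 higher in nulls (0.409%) and 63 lower (0.286%), and 2837 had an unadjusted p under 0.05. Among the 153 genes 93 differed alike under both treatments (0.423% of all genes), 74 higher in nulls (0.336%) and 19 lower (0.0864%). The 93 were chosen by the same differences that are described below, so their sizes and directions are a description. Most of the increases were small. The 74 higher genes had a median difference of 0.49 and 54 of them lay under 1.5-fold, while the 19 lower genes had a median of -0.86. At least 2-fold differences were found in 16 of the 93 genes, 10 higher and 6 lower. Over all genes the median averaged difference was 0.004 and 51.3% lay above 0. The number of genes that differed alike ran from 37 (without placebo wild type 4 or E2 wild type 5) to 182 (without placebo wild type 5) when single arrays were left out, and was 24 with scaling on the array median and 31 with slide as a block. The called genes split into 20 higher and 29 lower with median scaling and into 52 and 55 with quantile normalization.

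**Figure D1:**
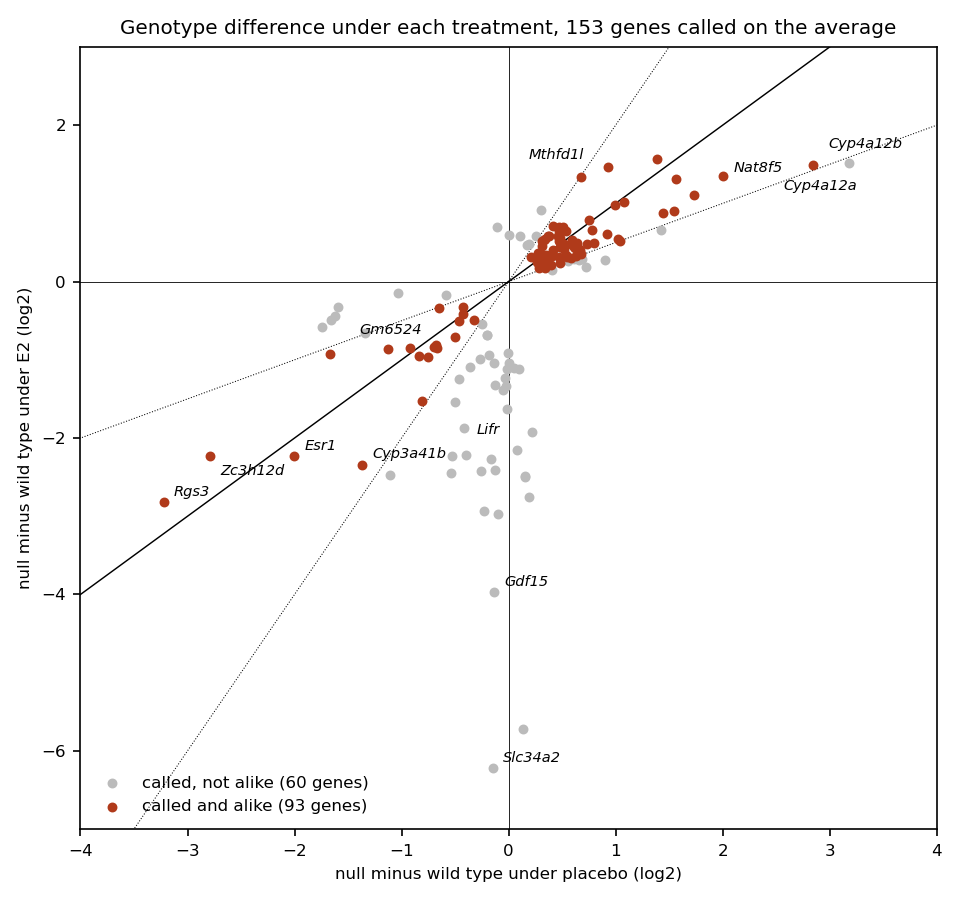
Null minus wild-type difference (log2) under placebo on the x axis and under E2 on the y axis for the 153 called genes, 93 that differed alike in red and 60 others in grey. The solid line marks equal differences and the dotted lines mark a ratio of 0.5 between them. Rgs3, Zc3h12d and Esr1 lie near the solid line at the lower left, while Gdf15 lies near 0 under placebo. The fitted positions of Slc34a2 and Krt4 are not measured differences, since both were well above background on wild-type E2 arrays only.

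The targeted gene was lower in every null liver. Esr1, which encodes estrogen receptor alpha, read 0.59, 0.39, 0.57, -0.04 and 0.42 in the wild types under placebo and -0.93, -2.16, -1.51, -1.48 and -1.98 in the nulls. After E2 it read 0.84, 0.12, 1.02, 0.83 and 0.21 in the wild types and -1.31, -1.59, -1.73, -1.41 and -2.10 in the nulls. No null array reached the lowest wild-type array, and treatments of the same genotype overlapped. On average the difference was -2.12 ± 0.16 (SE, 10 arrays per genotype), or 4.34-fold lower, with a limma adjusted p of 1.25e-06. It was -1.86 within slide 1, -2.16 within slide 2 and -2.13 with slide as a block. The probes at 5379218 and 5489352 differed by -1.76 and -1.63, with limma adjusted p-values over all probes of 1.44e-06 and 3.55e-05. At the first of these 2 of 10 null arrays were well above background, against 10 of 10 at the others, so null livers still gave signal at 2 Esr1 probes. Of the other receptors that bind estrogens, Esr2, the gene of estrogen receptor beta, had a difference of -0.04 ± 0.08 (limma adjusted p = 0.889) and Gper1, a G protein-coupled membrane receptor gene, of -0.22 ± 0.15 (limma adjusted p = 0.632). Among 17 tested genes of estrogen receptors and coregulators Esr1 was the 1 called, against 0.696% of all genes tested.

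Rgs3 had the largest averaged difference of the genes that differed alike. It encodes a regulator of G protein signalling that speeds the shut-off of G protein alpha subunits. Under placebo it read 3.65, 4.00, 3.55, 4.17 and 4.23 in wild types and 0.44, 0.58, 0.32, 0.80 and 1.34 in nulls. Under E2 it read 2.31, 2.95, 4.16, 4.70 and 4.67 in wild types and 0.75, 0.35, 2.30, 1.07 and 0.23 in nulls. The groups did not overlap under either treatment, although E2-treated null animal 3 lay close to the lowest wild type. Averaged over treatments it was -3.02 ± 0.30, an 8.11-fold decrease, with a limma adjusted p of 3.41e-05, and it was -3.28 within slide 1, -2.91 within slide 2 and -3.04 with slide as a block. The size depended on the probe. That difference came from the probe at chromosome 4, 62363993 to 62364052, while the probe at 62363208 differed by -0.72 (limma adjusted p over all probes = 0.0018) and the one at 62320777 by -0.04 (adjusted p = 0.971). All 20 arrays were well above background at each of these 3 probes, and their mean gave -1.26.

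Gm6524, which the gene table lists as a transcribed pseudogene, had levels that lay close together within 3 of the 4 groups. It read 1.49, 1.48, 1.58, 1.56 and 1.46 in placebo wild types and 0.42, 0.34, 0.34, 0.53 and 0.35 in placebo nulls. After E2 it read 1.41, 1.48, 1.46, 1.49 and 1.52 in wild types and 0.49, 0.58, 0.46, 0.36 and 1.16 in nulls. Every null array lay below every wild-type array, with E2-treated null animal 5 nearest to them. The averaged difference was -0.99 ± 0.08, or 1.99-fold lower, with a limma adjusted p of 1.25e-06, and it was -1.05 within slide 1, -0.92 within slide 2 and -0.99 with slide as a block. Its probe lay on chromosome 8 at 11693102 to 11693161, and whether it reads this locus or a similar gene cannot be checked with a single probe.

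Of the 93 genes 7, counting Esr1 itself, lay on the part of chromosome 10 that holds Esr1. Within 10 Mb of the Esr1 probe 73 genes were tested and 7 differed alike (9.59%, against 0.423% of all genes tested), 4 higher in nulls and 3 lower. Within 2 Mb it was 4 of 29 genes (13.8%), within 5 Mb 5 of 54 (9.26%) and within 20 Mb 7 of 132 (5.30%). Without Esr1 it was 6 of 72 genes within 10 Mb (8.33%) and 3 of 28 within 2 Mb (10.7%). Each gene called in these windows also differed alike. Chromosome 10 as a whole held 13 of the 93 among 1009 genes tested (1.29%), the highest share of any chromosome, with chromosome 3 next at 10 of 1055 (0.948%). The wild types came from the same parents as the nulls, and differences in the sequence around the knockout between the genotypes were not tested.

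Mthfd1l, the mitochondrial enzyme gene that makes formate from one-carbon units carried on folate, lay 0.848 Mb from the Esr1 probe. Under placebo it read -1.002, -0.95, -0.53, -1.08 and -0.42 in wild types and 0.25, 0.32, 0.15, -0.27 and 0.22 in nulls. Under E2 it read -1.48, -0.97, -1.53, -1.13 and -1.51 in wild types and -0.08, -0.16, 0.42, -0.29 and 0.78 in nulls. Every null liver lay above every wild-type liver. On average the difference was 1.19 ± 0.14, a 2.29-fold increase, with a limma adjusted p of 0.000181, and it was 1.101 within slide 1, 1.67 within slide 2 and 1.17 with slide as a block. The increase was 0.93 under placebo (adjusted p = 0.0937) and 1.46 under E2 (adjusted p = 0.000404), and the 95% interval of the change between these ran from -0.05 to 1.11. At the second Mthfd1l probe, at 6198416, the value was 0.77 (limma adjusted p of 0.0926 among all probes).

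Zc3h12d, which encodes a zinc finger RNase of the regnase family known from immune cells, lay 2.25 Mb from the Esr1 probe and was chosen after its values were seen, as were the other chromosome 10 members named in this paragraph. Under placebo it read -1.32, -1.57, -1.86, -1.25 and -0.63 in wild types and -4.02, -4.41, -4.42, -3.96 and -3.77 in nulls. After E2 it read -0.91, -1.30, -0.82, -1.20 and -1.67 in wild types and -3.46, -3.95, -4.62, -3.37 and -1.65 in nulls. The groups overlapped only through E2-treated null animal 5, which lay at the level of the wild types. Averaged over treatments it was -2.51 ± 0.27 (limma adjusted p = 6.9e-05), with 6 of 10 null arrays well above background, and its size was -1.22 under normexp background correction and -1.59 in the deposited table. Adat2, the catalytic subunit of an enzyme that edits adenosine in transfer RNA, lay 7.94 Mb away and was 2.07-fold higher in nulls (1.05 ± 0.18, adjusted p = 0.00809). Its null levels ran from 0.67 to 1.48 with a median of 1.25 and its wild-type levels from -0.44 to 0.98 with a median of -0.16. Placebo wild type 1 and E2 wild type 4, at 0.88 and 0.98, lay within the null range, and the other 8 wild types lay below it. Sf3b5, a subunit of the splicing factor that recognises branch points, was 1.22-fold higher (0.28 ± 0.06, adjusted p = 0.0451), and its call ended without any 1 of 15 arrays. The calls of Zc3h12d and Adat2 held without each single array and ended with the animals numbered 750 or above.

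The last members near Esr1 were noncoding or unnamed. A330032P22Rik, a long noncoding RNA gene 1.28 Mb away that was also chosen after its values were seen, differed by -1.29 ± 0.18 (limma adjusted p = 0.00163), with 9 of 10 wild-type and 5 of 10 null arrays well above background. Its size was -0.42 under normexp correction and its call ended with quantile normalization (largest adjusted p over the alternatives 0.183). A probe named only by a chromosome 10 region, with its own position at 6490456 to 6490515, was 2.78-fold higher in nulls (1.48 ± 0.17, adjusted p = 0.000297). For that probe E2 wild type 4 was marked non-uniform and left out, so 9 wild-type arrays entered. Its probe lay on the minus strand within 137 kb of that of A330032P22Rik, which moved in the opposite direction.

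**Figure D2:**
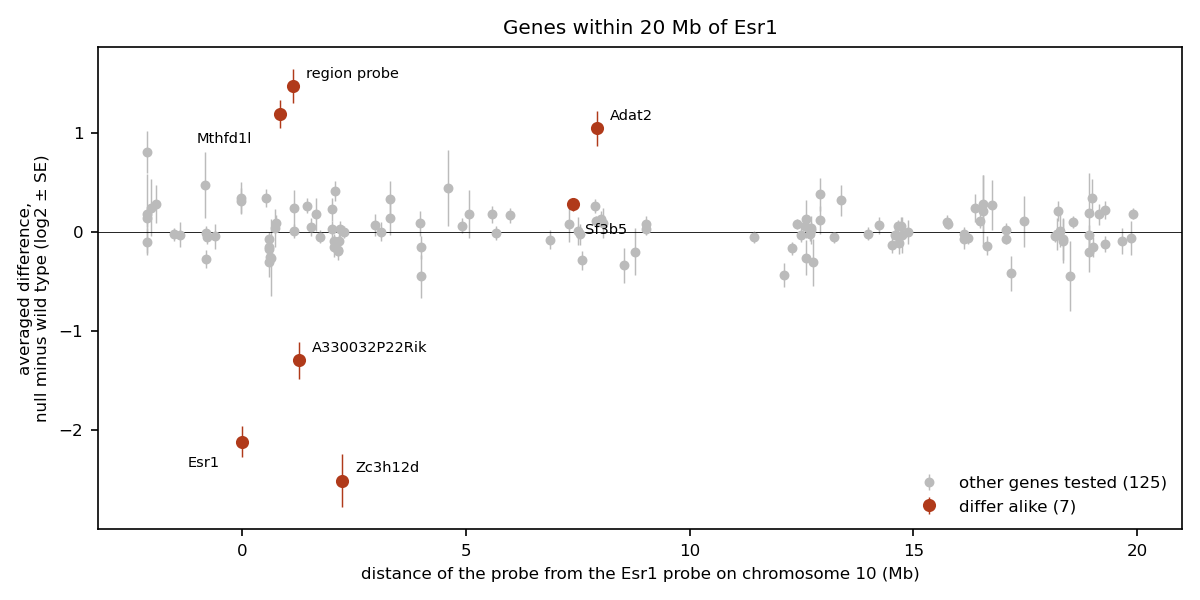
Averaged null minus wild-type difference (log2, ± SE) on the y axis against the distance of each tested gene's probe from the Esr1 probe (Mb) on the x axis, for the 132 genes within 20 Mb. The 7 genes that differed alike, among them Esr1 at distance 0, are in red, and 3 of them lie below 0 and 4 above.

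**Figure D3:**
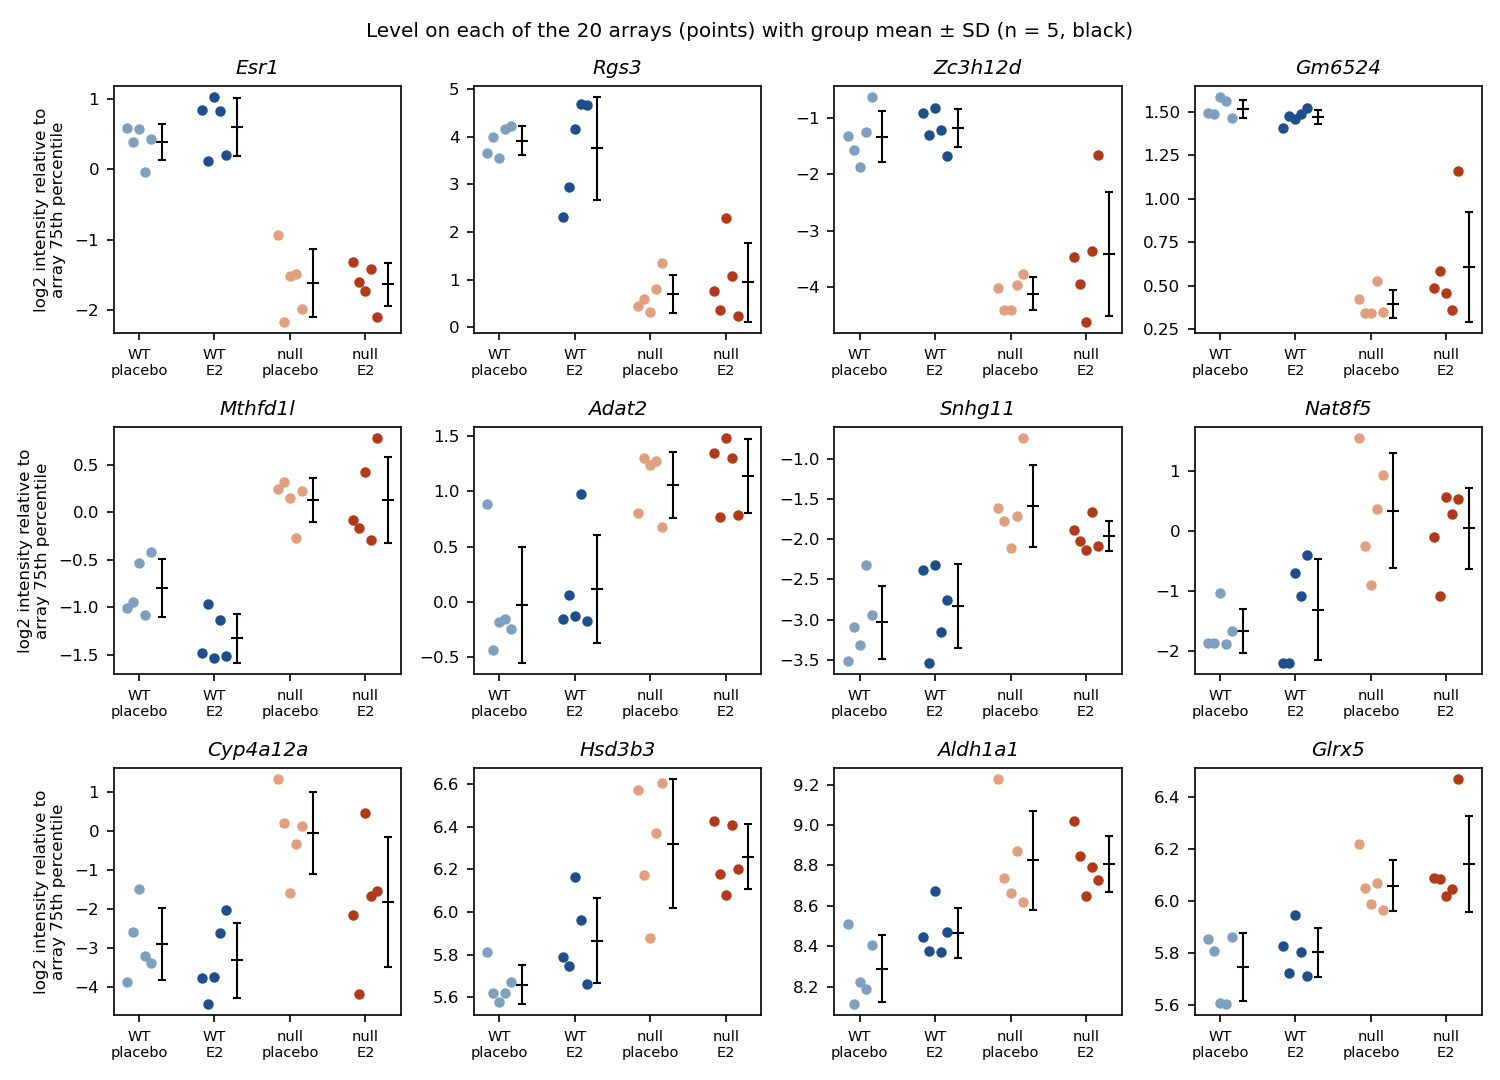
Level (log2 relative to the 75th percentile of the array, y axis) on each of the 20 arrays for 12 genes that differed alike, in 4 groups of 5 arrays (points) with the group mean and SD in black. Esr1, Rgs3, Gm6524, Mthfd1l and Snhg11 separate the genotypes completely, while E2 null animal 5 lies among the wild types for Zc3h12d.

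Outside this stretch, further increases were named by a rule that required no overlap between the genotypes within either treatment. Their separation within each treatment is therefore a description. Snhg11, a long noncoding RNA that hosts small nucleolar RNAs, was 2.24-fold higher in nulls. Its wild-type levels ran from -3.54 to -2.31 with a median of -3.02 and its null levels from -2.14 to -0.74 with a median of -1.83, with no overlap. Its probe lay on chromosome 2 at 158211554 to 158211613. The averaged difference was 1.16 ± 0.19 (limma adjusted p = 0.00527), and its size was 0.65 under normexp correction. Within slide 1 Snhg11 differed by 1.40 under placebo and 1.47 under E2, but within slide 2 by 0.20 and 0.24, from 1 or 2 arrays per group. Its call ended with the mean of the kept probes and with the animals numbered 750 or above (largest adjusted p 0.0619). At a second Snhg11 probe, near background, the value was 0.59 (adjusted p of 0.404 among all probes).

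Oat, ornithine aminotransferase, which links ornithine to glutamate and proline, was 1.57-fold higher in nulls (0.65 ± 0.13, limma adjusted p = 0.0294). Its wild-type levels ran from 5.87 to 7.13 with a median of 6.51 and its null levels from 6.92 to 7.51 with a median of 7.14. The genotypes separated within each treatment and overlapped across treatments, with E2 wild type 1 at 7.13 and placebo null 5 at 6.92. Rdh5, a retinol dehydrogenase gene, was 1.44-fold higher (0.52 ± 0.09, adjusted p = 0.00615), with every null above every wild type, from 4.51 to 5.05 against 3.86 to 4.46. Tpmt, which methylates thiopurine drugs, was 1.41-fold higher (0.49 ± 0.08, adjusted p = 0.00703), with nulls from 2.44 to 3.01 and wild types from 1.82 to 2.45. The probes lay on chromosome 7 at 139749726 to 139749785 (Oat), on chromosome 10 at 128350646 to 128350657 (Rdh5) and on chromosome 13 at 47120764 to 47120823 (Tpmt). The call of Oat ended without any 1 of 11 arrays, and those of Rdh5 and Tpmt held without each single array but ended with scaling on the array median and with the animals numbered 750 or above.

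Sfxn1, the mitochondrial serine transporter, was 1.28-fold higher in nulls, with nulls from 5.22 to 5.60 and wild types from 4.81 to 5.17 (0.36 ± 0.06, limma adjusted p = 0.00333). Glrx5, a glutaredoxin of iron-sulfur cluster assembly, was 1.25-fold higher, with nulls from 5.97 to 6.47 and wild types from 5.60 to 5.95 (0.33 ± 0.06, adjusted p = 0.0211). Mtfr1l, a mitochondrial fission regulator, was 1.17-fold higher, with nulls from 4.28 to 4.47 and wild types from 3.95 to 4.26 (0.23 ± 0.05, adjusted p = 0.0422). Dpyd, the first enzyme of pyrimidine breakdown, was 1.23-fold higher (0.30 ± 0.05, adjusted p = 0.0107). Its lowest null array read 6.593 and its highest wild type 6.589. Smim19, a small integral membrane protein gene, was 1.24-fold higher (0.31 ± 0.06, adjusted p = 0.019). The calls of Mtfr1l and Glrx5 ended without any 1 of 12 and 3 arrays. At a second Mtfr1l probe the value was 0.15 (limma adjusted p of 0.467 among all probes). The calls of Sfxn1, Glrx5, Mtfr1l, Dpyd and Smim19 all ended with scaling on the array median and with the animals numbered 750 or above. The list of 24 mitochondrial respiratory chain genes had 24 members above 0 with a median of 0.11, a range from 0.02 to 0.23 and 0 called with limma (6 at an unadjusted p under 0.05). With quantile normalization 21 of the 24 lay above 0, with a median of 0.07. The share above 0 over all genes was 51.3%.

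Genes of xenobiotic, retinoid and steroid metabolism held further members. Of 32 xenobiotic metabolism genes tested 28 lay above 0 (median 0.16, 2 called). Of 31 retinoid and one-carbon genes 27 did (median 0.14, 4 called). The shares over all genes were 51.3% above 0 and 0.696% called. Aldh1a1, which oxidises retinaldehyde to retinoic acid, was 1.35-fold higher in nulls (0.44 ± 0.08, limma adjusted p = 0.0134), with nulls from 8.62 to 9.23 and wild types from 8.12 to 8.67. E2 wild type 3, at 8.67, lay within the null range. Gstm2, a glutathione transferase gene, was 1.48-fold higher (0.56 ± 0.11, adjusted p = 0.016), with nulls from 5.47 to 6.15 and wild types from 4.70 to 5.48. Gnmt, glycine N-methyltransferase, which uses up S-adenosylmethionine in hepatocytes, was 1.25-fold higher (0.32 ± 0.07, adjusted p = 0.0371), and its call ended without any 1 of 13 arrays. Aldh1a7, a close relative 49.7 kb from Aldh1a1, was 1.43-fold higher (0.52 ± 0.09, adjusted p = 0.011). The calls of Aldh1a1, Gstm2 and Aldh1a7 held without each single array. All of these calls ended with scaling on the array median and with the animals numbered 750 or above.

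Of 22 steroid and estrogen metabolizing enzyme genes tested 13 lay above 0, with a median of 0.03 and 2 called, Hsd3b3 and Hsd3b2. The shares over all genes were 51.3% above 0 and 0.696% called. Hsd3b3, which acts on 3-beta-hydroxysteroids, was 1.44-fold higher in nulls (0.53 ± 0.09, limma adjusted p = 0.00829), with nulls from 5.88 to 6.61 and wild types from 5.58 to 6.16. Its call held without each single array and ended with scaling on the array median. Hsd3b2 was 1.39-fold higher (0.48 ± 0.10, adjusted p = 0.0304) and Hsd3b6, which is not on the list, 1.45-fold higher (0.54 ± 0.11, adjusted p = 0.0309). The calls of Hsd3b2 and Hsd3b6 ended without any 1 of 10 and 11 arrays. The other tested genes of this family did not pass, with Hsd3b1 at -1.05 (limma adjusted p = 0.693), Hsd3b5 at -0.74 (adjusted p = 0.845) and Hsd3b7 at 0.12 (adjusted p = 0.487). At a second Hsd3b2 probe the value was 0.25 (adjusted p of 0.65 among all probes). Hsd3b2, Hsd3b3 and Hsd3b6, Aldh1a1 with Aldh1a7, and the Nat8 and Cyp4a12 genes below have close relatives, so a probe may read more than 1 gene. Whether these probes do so was not tested. Nat8, which acetylates cysteine conjugates, and its direct neighbour Nat8f5 were 2.67-fold (1.42 ± 0.30, adjusted p = 0.0365) and 3.20-fold higher (1.68 ± 0.31, adjusted p = 0.0158). Nat8f5 ranged from -2.20 to -0.41 in wild types and from -1.09 to 1.54 in nulls, so the genotypes overlapped. The call of Nat8f5 ended with slide as a block. Hsd3b6, Aldh1a7, Nat8 and Nat8f5 were chosen after their values were seen.

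Among genes known to differ between male and female livers, members moved in both directions, and about equal numbers lay above and below 0. Of 24 male-biased genes 11 lay above 0 (median -0.02), with 5 at an unadjusted p under 0.05. Of 34 female-biased genes 18 did (median 0.11), with 17 at such a p and averaged differences from -4.57 to 1.17. Over all genes 2837 of 21998 had such a p, 51.3% lay above 0 and 0.696% were called. Under placebo the mean level of the female-biased list ran from 3.29 to 4.06 in wild types and from 2.9 to 3.55 in nulls. That of the male-biased list ran from 3.8 to 4.54 and from 4.19 to 5.16. The genotypes overlapped in both lists, as they did under E2. The called male-biased genes were Cyp4a12a and Cyp4a12b, fatty acid hydroxylases of male liver. Cyp4a12a read -3.86, -2.58, -1.48, -3.20 and -3.39 in placebo wild types and 1.32, 0.20, -1.59, -0.34 and 0.12 in placebo nulls. Under E2 it read -3.77, -4.43, -3.74, -2.61 and -2.04 in wild types and -2.16, -4.19, 0.47, -1.67 and -1.55 in nulls. The groups overlapped under both treatments, through placebo null animal 3 and E2 null animals 1 and 2. On average the difference was 2.17 ± 0.50 (limma adjusted p = 0.0498), with 9 of 10 arrays well above background in each genotype. The probe lay on chromosome 4 at 115005258 to 115005317. This call was the last inside the threshold, ended without any 1 of 17 arrays, and had a size of 1.35 under normexp correction. Cyp4a12b, 106 kb away, was called at 2.35 ± 0.52 (adjusted p = 0.0422) but fell just outside the rule for differing alike, at 3.18 under placebo and 1.52 under E2.

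Of the female-biased genes called, Cyp3a41b, a steroid-hydroxylating cytochrome P450 of female liver, was lower in nulls. It read 6.43, 4.15, 3.64, 5.64 and 3.67 in placebo wild types and 3.68, 3.98, 3.85, 3.29 and 1.88 in placebo nulls. After E2 it read 6.23, 5.43, 6.55, 6.69 and 6.11 in wild types and 4.02, 4.55, 3.78, 3.41 and 3.55 in nulls. The genotypes overlapped under placebo and separated under E2, at a probe on chromosome 5, 146319794 to 146319853. Averaged over treatments it was -1.86 ± 0.35 (limma adjusted p = 0.016), with a call that held without each single array and ended with the animals numbered 750 or above (largest adjusted p 0.0764). Fmo2, a flavin-containing monooxygenase gene, went the other way, 1.43-fold higher in nulls (0.51 ± 0.11, adjusted p = 0.0364), and its call ended without any 1 of 14 arrays.

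Other members were single genes of varied function, chosen after their values were seen. Id3, an inhibitor of basic helix-loop-helix transcription factors, was 1.85-fold lower in nulls (-0.89 ± 0.19, limma adjusted p = 0.036), with nulls from 2.37 to 3.74 and wild types from 3.49 to 4.83, and its call ended without any 1 of 12 arrays. Slc3a1, a subunit of the transporter for cystine and dibasic amino acids, was 1.68-fold lower (-0.75 ± 0.14, adjusted p = 0.016), with nulls from 1.54 to 2.497 and wild types from 2.18 to 3.25. The call of Slc3a1 ended with scaling on the array median. Cyp2j9, a cytochrome P450 gene, was 1.81-fold lower (-0.86 ± 0.17, adjusted p = 0.0211), a call that ended without either of 2 arrays. Mogat2, which acylates monoacylglycerol on the way to triglyceride, was 1.98-fold higher (0.99 ± 0.18, adjusted p = 0.0117), at 0.61 under normexp correction. The call of Mogat2 ended with the animals numbered 750 or above. Gal3st1, a sulfotransferase of glycolipids, was 2.01-fold higher (1.01 ± 0.21, adjusted p = 0.0294), a call that ended without any 1 of 6 arrays. H2-T10, listed as a transcribed pseudogene among the MHC genes and named by the rule for lists, was 1.31-fold higher (0.38 ± 0.08, adjusted p = 0.0405), with a call that ended without any 1 of 13 arrays.

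**Figure D4:**
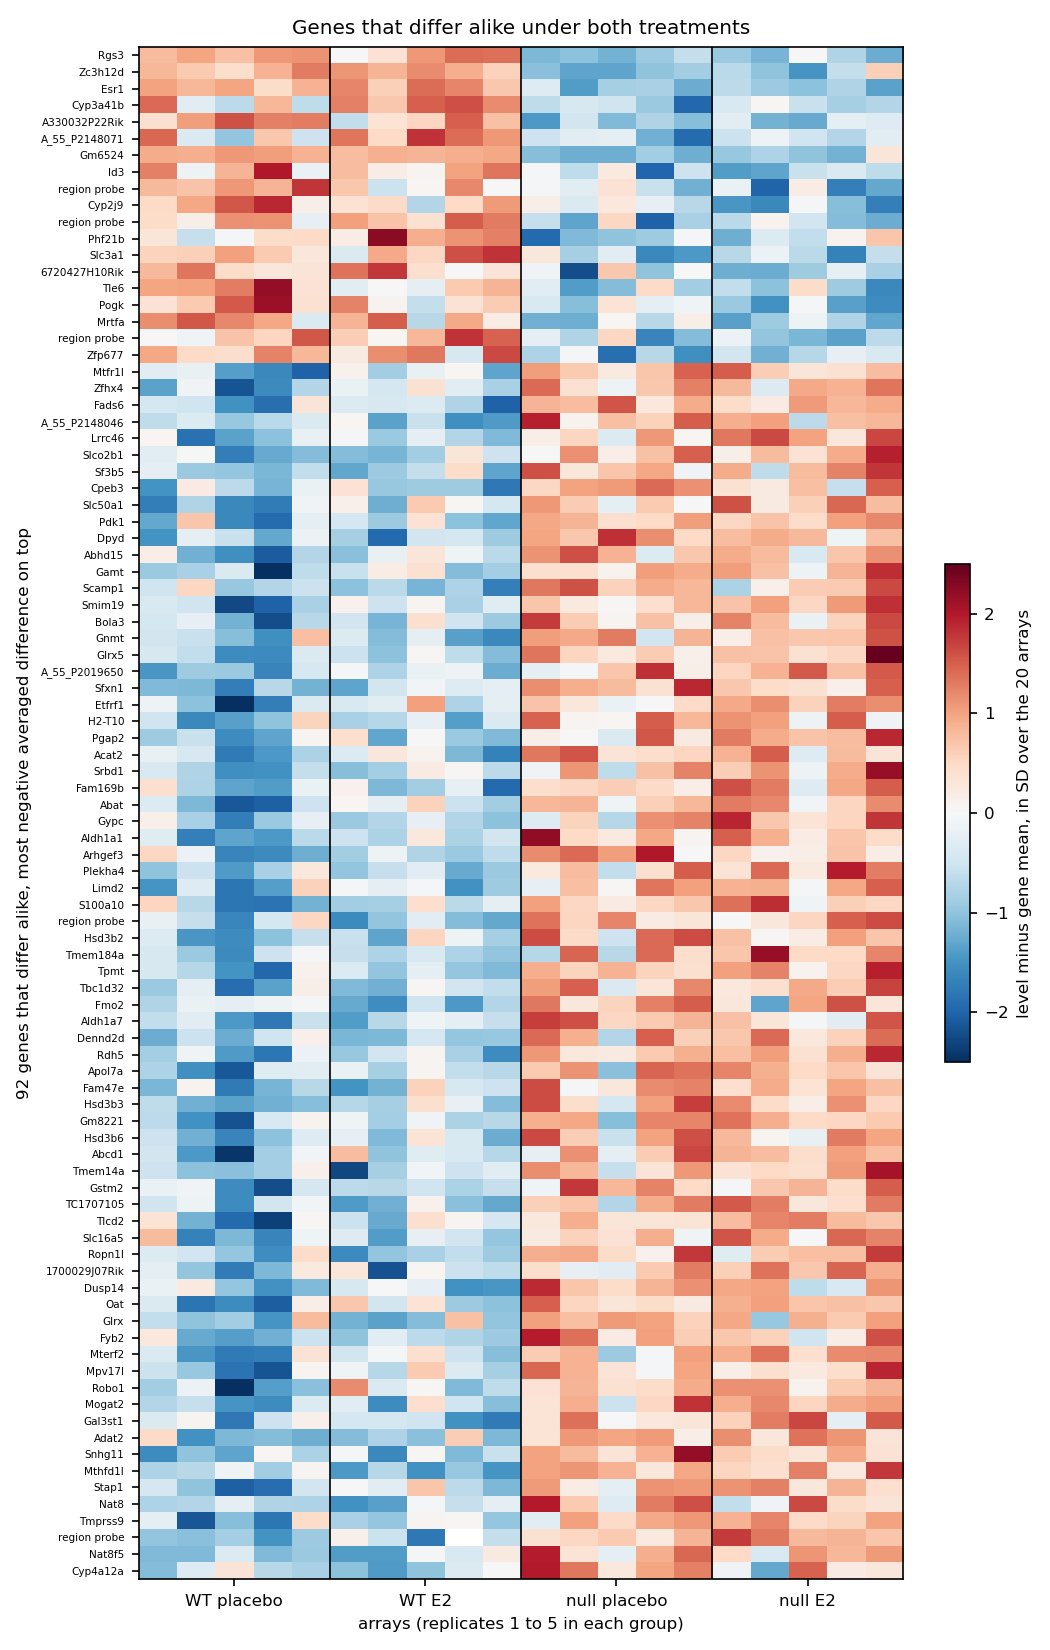
Of the 93 genes that differed alike, 92 are drawn (rows, from the most negative to the most positive averaged difference) on the 20 arrays (columns, 4 groups of 5), coloured by the level minus the gene's mean in SD over the arrays. The upper 19 rows are lower and all rows beneath them higher in nulls, and single arrays depart from their group in many rows.

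In several other lists of metabolic genes most members lay above 0, while few or none passed. Of 25 cholesterol synthesis genes 24 lay above 0, with a median of 0.32, 11 at an unadjusted p under 0.05 and 0 called. Msmo1, a sterol demethylase of this route, had the largest difference at 0.81 (limma adjusted p = 0.143). The median was 0.46 under placebo and 0.20 under E2. Of 29 genes of amino acid catabolism and the urea cycle 25 lay above 0, with a median of 0.22, 18 at an unadjusted p under 0.05 and 2 called, namely Oat and Gnmt. Of 29 glucose metabolism genes 25 lay above 0 (median 0.14) with 0 called and 11 at an unadjusted p under 0.05. Of 32 fatty acid and triglyceride synthesis genes 23 lay above 0 (median 0.11), and of 26 bile acid genes 19 did (median 0.07), with 0 called in either and 11 and 5 at an unadjusted p under 0.05. The number of cholesterol genes above 0 was 24 under each of the 4 other scalings tried. It ran from 23 to 26 for amino acid, 24 to 26 for glucose and 23 to 26 for fatty acid genes. For bile acid genes it ran from 15 to 22, with 15 and a median of 0.03 both with quantile normalization and in the deposited table. Over all genes 51.3% lay above 0, 0.696% were called and 2837 of 21998 had an unadjusted p under 0.05. The upper ends of these ranges came with scaling on the array median, where 68.2% of all genes lay above 0. That share was 50.5% under normexp correction, 50.4% with quantile normalization and 48.9% in the deposited table. Genes of a pathway share regulators and arrays, so the counts within lists are not counts of independent genes.

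Interferon response genes leaned the same way. Of 34 tested 31 lay above 0, with a median of 0.28, 18 at an unadjusted p under 0.05 and 0 called with limma, and the medians were 0.27 under placebo and 0.24 under E2. Usp18, which restrains interferon signalling, differed by 0.70 (limma adjusted p = 0.203) and Rsad2, an antiviral enzyme gene, by 0.62 (adjusted p = 0.0878). Ifih1, a sensor of viral RNA, differed by 0.38 (adjusted p = 0.0514). Of 21 MHC genes 19 lay above 0 (median 0.12) with 1 called. The shares over all genes were 51.3% above 0 and 0.696% called, and 2837 of 21998 had an unadjusted p under 0.05. Iron and heme genes (14 of 28 above 0) and cell cycle genes (11 of 22) were spread evenly around 0.

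**Figure D5:**
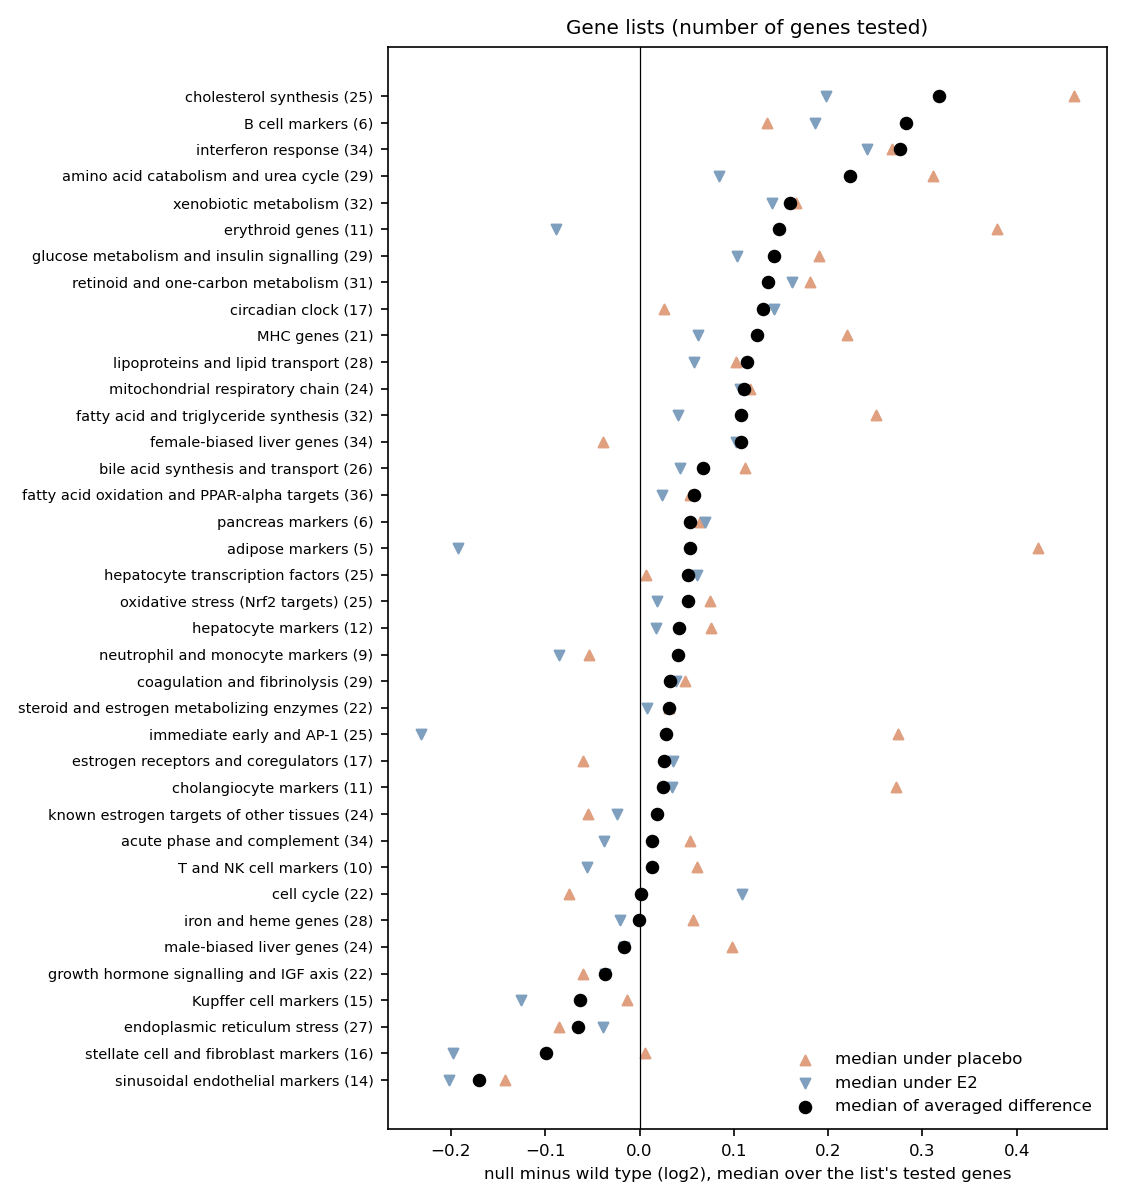
Median null minus wild-type difference (log2, x axis) over the tested genes of each of 38 lists (y axis, number tested in brackets), as the average (circles), under placebo (upward triangles) and under E2 (downward triangles). Cholesterol synthesis has the highest averaged median, 0.32, and sinusoidal endothelial markers the lowest, -0.17, and for erythroid genes the placebo and E2 medians lie on opposite sides of 0.

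Among markers of the cells that liver holds or that may come with it, 1 erythroid gene was called, and erythroid and adipose markers stood higher in nulls under placebo. The shares over all genes tested were 51.3% above 0 and 0.696% called. Hepatocyte markers were high on all arrays, with a mean level over 12 genes from 8.67 to 9.21, and had a median difference of 0.04. All 14 sinusoidal endothelial markers lay below 0 (median -0.17, range -0.32 to -0.02), with 0 called and 0 at an unadjusted p under 0.05, and their mean level ran from 1.01 to 1.82 in wild types and from 0.77 to 1.94 in nulls. Kupffer cells are the macrophages of the liver, and 3 of their 15 markers lay above 0 (median -0.06). With scaling on the array median 7 of the 15 did, against 68.2% of all genes in that setting. Medians were -0.10 for 16 stellate cell and fibroblast markers and 0.01 for 10 T and NK cell markers. They were 0.04 for 9 neutrophil and monocyte markers, 0.03 for 11 cholangiocyte markers and 0.05 for 6 pancreas markers. For 6 B cell markers, with mean levels from -3.19 to -1.84, the median was 0.28, with 0 at an unadjusted p under 0.05. The B cell median was 0.07 under normexp correction and 0.11 in the deposited table, but 0.34 with median scaling and 0.30 with quantile normalization. It was 0.07 with the animals numbered 750 or above and ran from 0.06 to 0.325 without single arrays. For 5 adipose markers the averaged median of 0.05 joined 0.42 under placebo and -0.19 under E2, with 0 called. Their mean level ran from -0.20 to 0.33 in placebo wild types and from 0.42 to 1.00 in placebo nulls, without overlap, and from 0.39 to 0.91 and 0.26 to 0.56 under E2. All 11 erythroid genes lay above 0 (median 0.15), at 0.38 under placebo and -0.09 under E2, and their mean level ran from 2.23 to 2.42 in placebo wild types and from 2.58 to 3.01 in placebo nulls, again without overlap. Under E2 it ran from 2.59 to 2.93 in wild types and from 2.47 to 2.87 in nulls. Alas2, the heme synthesis enzyme of red cell precursors, was called at 0.58 ± 0.08 (limma adjusted p = 0.00172) and was larger under placebo (0.90) than under E2 (0.27). The part of these shifts in the differences of other genes was not tested.

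The 60 called genes that did not differ alike were mostly lower in nulls and mostly so under E2. There were 44 lower and 16 higher, and the difference was larger under E2 in 44 and under placebo in 16. The difference between the genotype differences was itself called in 22 of the 60, in 0 of the 93 and in 36 of all genes tested (0.164%). The rule on like differences makes a low count among the 93 certain. Slc34a2, a sodium-phosphate cotransporter gene, was well above background on the 5 wild-type E2 arrays only and was at least 21.7-fold lower in nulls under E2 (limma adjusted p = 3.63e-08). Neither genotype reached that level under placebo, so no placebo or averaged size is given. Gdf15, a stress-induced cytokine gene, differed by -0.14 under placebo and -3.97 under E2. Mmd2, a membrane protein gene, differed by 0.19 and -2.76. Rab44, a large Rab GTPase gene, differed by 0.15 and -2.48, with 3 of 5 null E2 arrays well above background. Krt4, an epithelial keratin gene that was well above background on wild-type E2 arrays only, was at least 2.55-fold lower in nulls under E2 (adjusted p = 0.000314). For these 5 genes the average over treatments describes neither treatment.

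The called list members Lifr and Stat5a also differed more under E2. Lifr, the receptor gene for leukemia inhibitory factor, differed by -0.42 under placebo and -1.87 under E2, on average -1.14 ± 0.22 (limma adjusted p = 0.0161). Its levels were 5.15, 5.21, 5.37, 5.34 and 5.06 in placebo wild types and 4.85, 4.14, 4.58, 5.66 and 4.80 in placebo nulls. Under E2 they were 6.03, 5.83, 6.68, 7.01 and 6.70 in wild types and 4.06, 4.33, 5.38, 5.25 and 3.88 in nulls. Under placebo null animal 4 lay above all wild types and the other 4 below them, and under E2 the genotypes separated. At its other kept probes Lifr differed by 0.06 and -0.04 under placebo and by -2.89 and -2.86 under E2, so the placebo part came from the 1 probe used. Stat5a, a transcription factor gene downstream of growth hormone, averaged -0.52 ± 0.11 (adjusted p = 0.0272) and came wholly from E2 (-1.04).

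Each treatment on its own called fewer or other genes. Under placebo 16 genes were called (0.0727%) and under E2 102 (0.464%), with 5 called in both, and the arrays of these comparisons were separate animals. Of the 16 genes called under placebo 15 had the same sign under E2, 10 of them with an unadjusted p under 0.05, against 54.6% of all genes with the same sign and 9.63% with such a p under E2. Of the 102 called under E2 62 had the same sign under placebo, 17 with an unadjusted p under 0.05, against 10.12% of all genes. The 9.63% and 10.12% count genes with such a p whatever their sign, while the 10 and 17 had the same sign as well. Both comparisons drew on 1 estimate of the spread. Of the 93 genes that differed alike 8 were called under placebo, 11 under E2 and 5 in both, and 79 in neither, so most were called on the 20 arrays together. In 15 of the 93 the genotypes did not overlap within either treatment, which was not counted over all genes. In 11 every null array lay on the same side of every wild-type array. Over all genes tested 16 separated the 20 arrays in that way. The 93 were chosen by the same differences, which favours separation among them.

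Probe choice and the cutoff bear on single members. Of the 93 genes 37 had other kept probes, 48 in all, and 46 of these had the same sign as the probe used, with 15 called over all probes and 0 called in the opposite direction. Just inside the rule for differing alike lay Gal3st1, with a smaller difference 0.503 of the larger, and Sfxn1, at 0.505. Just outside lay Tcf24, a transcription factor gene, at 0.491, and Tgfbr2, a receptor for transforming growth factor beta, at 0.479. At the threshold on the average, Cyp4a12a lay just inside (adjusted p = 0.0498) and Sirt5, a mitochondrial deacylase gene, just outside (adjusted p = 0.0502, limma).

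Promoters of the members were searched for the element that estrogen receptors bind, GGTCA, then 3 bases of any kind, then TGACC, which reads the same on both strands. The windows were RefSeq's 300-base promoter windows, which reach from before to just after the gene start, and 64 of the 93 genes had one. The full element was in 0 of the 64 and in 0.074% of 27025 genes with a window. GGTCA or its reverse complement TGACC, counted where the full element occurs too, was in 28 of the 64 (43.8%) and in 43.6% of all genes. A match in a window is a run of letters and not a site of binding, and elements outside the window were not searched.

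Several facts about the arrays stand beside these results. The 20 arrays lay on 4 slides, of which slides 1 and 2 held all 4 groups. Well above background were 51.6% to 61.3% of spots on null arrays and 54.0% to 70.0% on wild-type arrays. Across genes, array levels correlated at 0.981 to 0.995 within groups and at 0.978 to 0.993 between groups. Animals numbered below 750 by the labels were 5 nulls and 2 wild types, and without them 49 genes were called and 25 differed alike. Of the 83 members named in RefSeq 4 kept their call in all 33 alternative settings, namely Esr1, Rgs3, Gm6524 and Mthfd1l, and 31 kept it without each single array in turn.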

How the data were processed

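Liver RNA from 20 mice was hybridised to 1-colour Agilent arrays and imaged with Feature Extraction 10.10.1.1, per the file headers, which place probes on mm9. Per the file headers, the deposited processed intensity has background subtracted and spatial trends removed. The authors also deposited log2 values of 32526 probes, which followed each array's log2 median signal (correlation 0.99867 to 0.99998) with column medians of 7.846 to 7.852. These values served as an alternative. The basis of that probe selection is not stated by the labels.

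For each spot, log2 of the processed intensity was reduced by the array's 75th percentile over 59305 non-control spots, with 0 to 16 non-uniform spots per array left out. Of 55681 probes, 30961 were kept, those whose well-above-background flag was set in 4 or all 5 arrays of any group. The brightest probe stood for each gene, and 27235 probes were named by accession, 3581 by symbol and 565 by synonym through a RefSeq table (GRCm38.p6), from which no coordinate was taken. Exon and UTR annotation was not used here.

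The 4 group means were fitted with limma 3.58.1 in R 4.3.3 (data.table, version 1.17.8), with 16 residual and 2.44 prior degrees of freedom, 2-sided, with the average, each treatment and their difference as contrasts and Benjamini-Hochberg adjustment within each. The number of arrays limits the precision. For a group with 0 arrays well above background, a fold is at least the brighter mean over the dim arrays' lowest well-measured signal. Named genes were the 15 largest increases and decreases (10 and 3 met the rule) among genes that differed alike without overlap within either treatment, the estrogen receptors, up to 3 called members of a list, and the 5 largest called differences between treatments. Others are marked as chosen after their values were seen. The members, the 38 gene lists and the tests were chosen with earlier results of these data known. The labels give each sample its own animal, and cage mates are not named. The fit was tested on simulated data. Alternatives were other background correction, scaling, probe filters and probe summaries, the authors' values, blocks, additive terms, a subset of animals and leaving out single arrays. Some genes are not reported here by name.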

Additional observations from a re-analysis of the deposited data

Results flagged for a closer look

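Among 33 named genes and 4 groups of 5 arrays each, 132 groups were examined for a single array far from the others, and 11 held one, where chance alone gives about 1 in 20. The measure is the gap of the extreme array to its nearest neighbour as a share of the group's range, with a critical value of 0.71. Among placebo nulls Mthfd1l was low on array 4 (0.71), Gnmt low on array 4 (0.75), Oat high on array 1 (0.756) and Alas2 high on array 1 (0.772). Among E2 nulls Glrx5 was high on array 5 (0.837), Gm6524 high on array 5 (0.717) and Dpyd low on array 4 (0.817). Among wild types Fmo2 was low on placebo array 1 (0.715) and Stat5a low on E2 array 2 (0.769), and Krt4 was high on placebo array 1 (0.722) and on E2 array 1 (0.711). In no placebo wild type was Krt4 well above background.

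The genotype difference itself changed with treatment in 5 named genes, given as the difference under E2 minus that under placebo with limma adjusted p-values. It was -6.07 for Slc34a2 (1.8e-05), -3.83 for Gdf15 (0.00258), -2.95 for Mmd2 (0.00447), -2.87 for Krt4 (0.0339) and -2.63 for Rab44 (0.00497), with 5 arrays per group. Slc34a2 and Krt4 were well above background on wild-type E2 arrays only, so their 2 values come from the fit and are no measured sizes. What was measured is a level at least 21.7-fold (Slc34a2) and 2.55-fold (Krt4) lower in nulls under E2.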

How the results depend on the processing

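Against 153 called genes, 93 that differed alike, 16 under placebo, 102 under E2 and 36 that differed between treatments, scaling on the array median gave 49, 24, 7, 39 and 18, and shifted the median of all genes to 0.061. The animals numbered 750 or above gave 49, 25, 2, 35 and 10, with 3 genes near Esr1 against 7. No filter on dim probes gave 70, 32 and 8 and slide as a block 68, 31 and 9 (called, alike, placebo), quantile normalization 59 alike, additive terms 92 called, and probes above background on all 20 arrays 4 near Esr1. Leaving out single arrays gave 77 to 273 called, 37 to 182 alike, 6 to 46 under placebo, 67 to 120 under E2 and 31 to 40 differing between treatments, and 5 to 8 near Esr1. The cause was not tested.

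Called genes moved over 1.5 times without placebo wild types 3 (85), 4 (84) and 5 (273), E2 wild types 2 (93), 4 (94) and 5 (77), placebo nulls 2 (99) and 4 (99), and E2 nulls 1 (98), 2 (100), 4 (85) and 5 (93). Genes that differed alike moved over 1.5 times without these, at 39, 37, 182, 46, 47, 37, 50, 49, 48, 54, 44 and 46 in the same order, and without placebo wild type 2 (53), placebo null 5 (53) and E2 null 3 (141). Placebo calls moved without placebo wild type 3 (6), placebo nulls 2 (9), 3 (46) and 4 (10) and E2 null 3 (10), and E2 calls without E2 wild type 5 (67) and E2 null 2 (67).

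The share of called genes higher in nulls was 58.8%, against 40.8% both with median scaling and with the animals numbered 750 or above, 48.6% with quantile normalization, 38.6% without a filter, 38.2% with slide as a block and 73.9% with additive terms. Of the alike genes 79.6% were higher, and 56.0% with the animals numbered 750 or above.

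No refit reversed a member named in RefSeq, and within slides 1 and 2 164 of 166 averaged values kept their sign. Those of Gm8221 (-0.005) and Apol7a (-0.053) turned within slide 2. Calls ended without single arrays as follows. Oat ended without placebo wild types 2, 3 and 4, E2 wild types 2, 4 and 5, placebo null 2 and E2 nulls 1, 2, 4 and 5, and Glrx5 without placebo wild types 3 and 4 and E2 wild type 5. Hsd3b2 ended without placebo wild types 2, 3 and 4, E2 wild types 2 and 5, placebo nulls 4 and 5 and E2 nulls 1, 4 and 5, and Stat5a without E2 wild types 4 and 5, placebo null 2 and E2 nulls 1 and 4. Id3 ended without placebo wild types 1, 3 and 4, E2 wild types 1, 4 and 5, placebo nulls 2, 4 and 5 and E2 nulls 1, 2 and 5, and Hsd3b6 without placebo wild types 2, 3 and 4, E2 wild types 2, 4 and 5, placebo nulls 4 and 5 and E2 nulls 1, 4 and 5. Gal3st1 ended without placebo wild type 4, E2 wild types 4 and 5, placebo null 2 and E2 nulls 2 and 5, and Cyp2j9 without placebo wild type 3 and E2 wild type 5. Other calls held only without certain single arrays, namely placebo wild type 3, placebo null 3 or E2 null 2 for Cyp4a12a, and placebo wild type 3 or 5, E2 wild type 5, placebo null 3 or E2 null 2 or 3 for Cyp4a12b. For Fmo2 these were placebo wild type 5, E2 wild type 3, placebo null 2 or 3 and E2 null 2 or 3, and for Gnmt placebo wild type 1 or 5, E2 wild type 1 or 3, placebo null 4 and E2 null 1 or 3. For H2-T10 they were placebo wild type 1 or 5, E2 wild type 3, placebo null 2 or 3 and E2 null 3 or 5, and for Nat8 placebo wild type 1 or 5, E2 wild type 3, placebo null 3 and E2 null 1, 2 or 3. For Mtfr1l they were placebo wild type 1, 2 or 5, E2 wild type 1 or 3, placebo null 1 or 3 and E2 null 3, and for Sf3b5 placebo wild type 1 or 5, E2 wild type 4, placebo null 5 and E2 null 2.

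With the replicate number as a block 138 genes were called and 76 differed alike, 64 of them among the 93. Same-numbered arrays deviated together weakly (mean correlation 0.011 to 0.139, lowest -0.163), so the numbers were not taken to pair the animals.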
